A study of Caenorhabditis elegans with 2 samples.

Results

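The genes described here encode the machinery that starts transcription by RNA polymerase II in Caenorhabditis elegans: the polymerase subunits, the TATA-binding protein TBP with its associated factors (TAFs), and Mediator. Members were the protein-coding genes of the Ensembl WBcel235 annotation whose symbol begins with rpb-, taf- or mdt-, together with ama-1 and tbp-1. This gave 50 of 19973 protein-coding genes on the nuclear chromosomes, 12 for the polymerase, 18 for TBP and the TAFs and 20 for Mediator. Binding of EFL-1, an E2F-family transcription factor, had been mapped by chromatin immunoprecipitation and sequencing with an efl-1 antibody. The 2 samples, biological replicates 2 and 3, form 1 group of whole first-stage (L1) larvae of strain MT10430, which carries lin-35(n745), with male and female animals pooled and no known age. LIN-35 is the retinoblastoma-like pocket protein of C. elegans. Both samples carry its mutation, so the binding below has no wild-type, other stage or mock-antibody group beside it. In whole larvae, binding in few cells cannot be told apart from weak binding in many.

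RNA polymerase II is built from a large catalytic pair of subunits and smaller ones, some of which also serve polymerases I and III. TBP and the TAFs make up TFIID, which recognises core promoters, and several TAFs pair through histone folds. Mediator, with head, middle and tail modules and a detachable kinase module, links activators to the polymerase. E2F factors are best known for controlling genes of the cell division cycle, and in worms EFL-1 works with DPL-1 and, in the DREAM complex, with LIN-35 and LIN-54. The E2F family binds sequences such as TTCCCGC and TTGGCGC, and LIN-54 relatives bind the CHR element, written TTTGAA or TTCGAA.

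EFL-1 lay at the promoters of many of these genes, with the largest share among those of the polymerase itself. The authors' IDR list held 4534 peaks, thresholded on a measure of rank agreement at a cutoff not given in the sources. Of these, 4525 overlapped a region of each replicate's own list, so a listed peak was not in every case seen in both. A gene was counted as bound when the summit of an IDR peak fell in a window around any annotated 5' end of its transcripts. That window starts 1000 bp before the 5' end and stops 500 bp after it. By this rule 26 of the 50 genes were bound (52.0%), against 19.6% of all protein-coding genes. The count was 10 of 12 for the polymerase (83.3%), 9 of 18 for TBP and the TAFs (50%) and 7 of 20 for Mediator (35.0%). No test was made of these counts, since the design holds 1 group and the genes were chosen with earlier results of these data known. The strongest peaks of the 26 genes were 26 separate peaks, so none was counted for a pair of members.

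**Figure D1:**
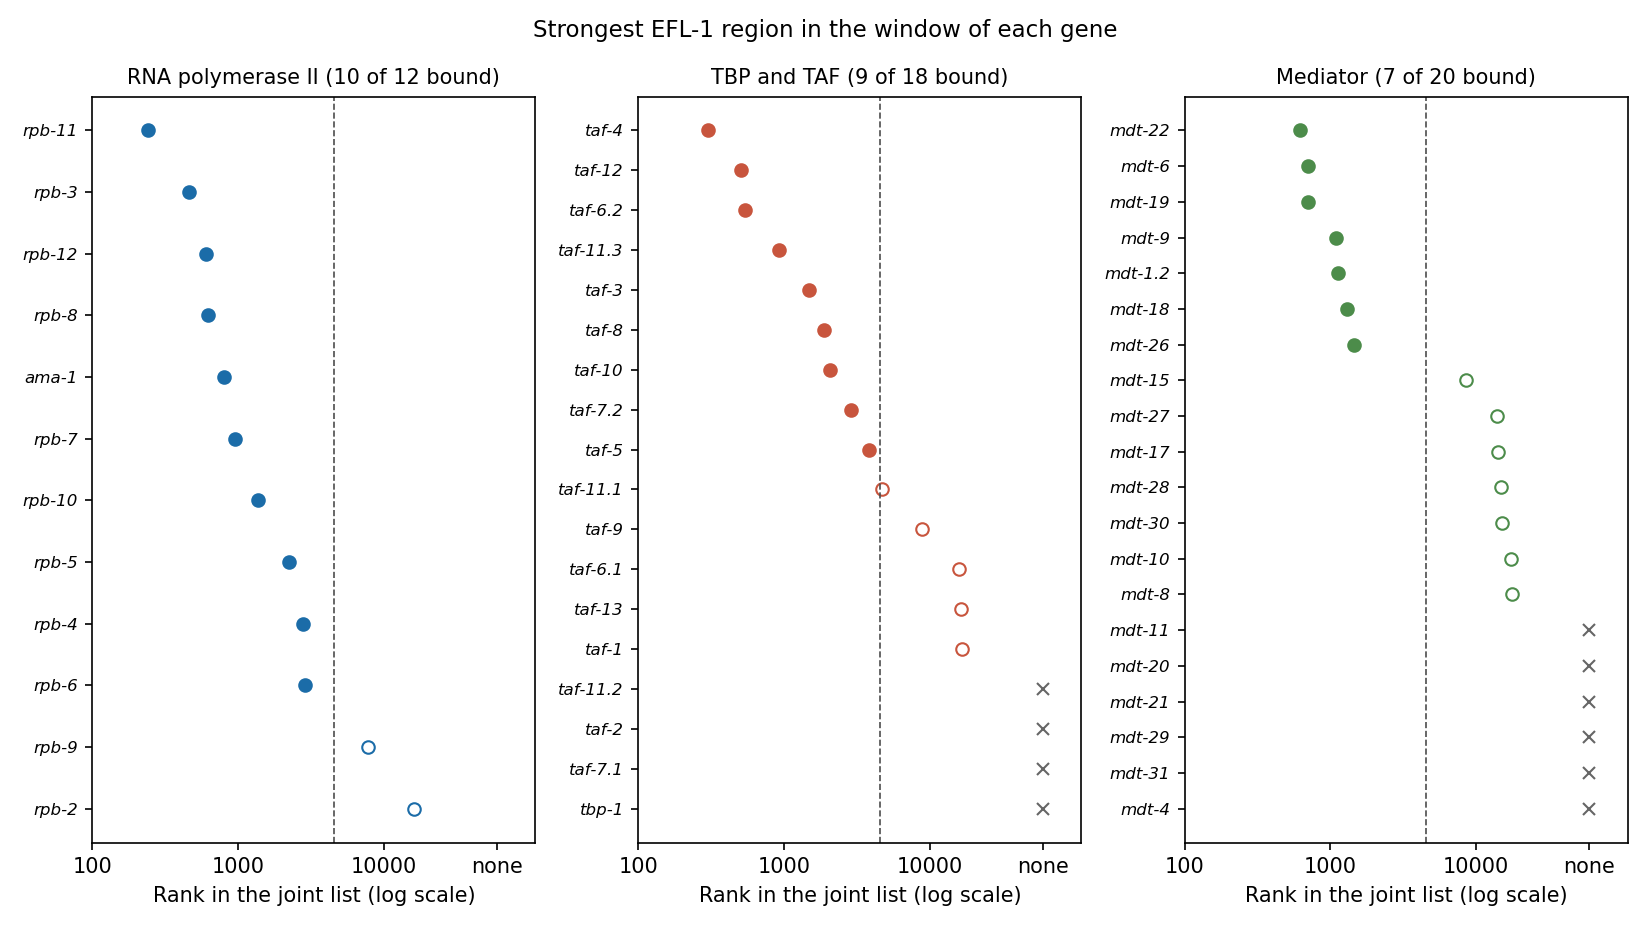
Rank, on a log scale, of the strongest region of the joint list in the window of each of the 50 genes, by complex. Filled circles are genes with an IDR summit, open circles have only a weaker joint region, crosses have no region, and the dashed line marks rank 4534, the last IDR peak.

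Printed below are the sequences around 6 member summits, picked because each holds an E2F-type or CHR-type match. The first 4 are among the 6 member peaks with an E2F-type match, and the last pair, of a polymerase and a TAF gene, are strong peaks with a CHR-type match and no E2F-type one. Each runs 60 bp to either side of the summit, from the RefSeq WBcel235 (ce11) sequence on the strand of the gene, with E2F-type and CHR-type matches on either strand in capitals.
ama-1 (chrIV:4247463-4247583, plus strand): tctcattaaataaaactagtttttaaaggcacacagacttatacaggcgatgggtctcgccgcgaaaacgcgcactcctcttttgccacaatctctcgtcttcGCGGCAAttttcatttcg
rpb-12 (chrIV:9147101-9147221, minus strand): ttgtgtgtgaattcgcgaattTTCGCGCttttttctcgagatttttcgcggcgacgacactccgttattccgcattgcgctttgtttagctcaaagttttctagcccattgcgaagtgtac
mdt-22 (chrII:10301092-10301212, plus strand): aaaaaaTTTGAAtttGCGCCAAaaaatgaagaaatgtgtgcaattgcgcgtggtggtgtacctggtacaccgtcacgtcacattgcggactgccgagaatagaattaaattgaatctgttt
mdt-6 (chrV:7060491-7060611, minus strand): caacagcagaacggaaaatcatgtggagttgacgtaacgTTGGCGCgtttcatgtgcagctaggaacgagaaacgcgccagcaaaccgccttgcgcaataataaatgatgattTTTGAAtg
rpb-11 (chrII:14059900-14060020, plus strand): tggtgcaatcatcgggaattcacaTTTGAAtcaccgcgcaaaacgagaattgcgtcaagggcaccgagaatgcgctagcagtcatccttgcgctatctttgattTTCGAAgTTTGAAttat
taf-6.2 (chrIV:3694790-3694910, minus strand): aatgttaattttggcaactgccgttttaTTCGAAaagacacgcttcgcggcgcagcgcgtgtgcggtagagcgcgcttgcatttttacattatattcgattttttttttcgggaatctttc

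Exact E2F-type matches were present at few of these summits. Both strands were searched for 4 spellings, and a match to any of them lay within 100 bp of the summit at 6 of the 26 member peaks (23.1%), those of ama-1, rpb-12, mdt-22 and mdt-6, shown above, and of taf-4 and rpb-7. Over all IDR summits the share was 18.7%, and over promoter windows of the same length, ending at the most upstream 5' end of every protein-coding gene, it was 6.26%. The spelling TTGGCGC was found at the peaks of mdt-22, mdt-6 and rpb-7. Of the others, TTCGCGC was found at rpb-12, the spelling TTGCCGC at ama-1 and the spelling TTCCCGC at taf-4. The match centre lay within 30 bp of the summit at 2 of the 6, at +6 bp for rpb-7 and at +18 bp for mdt-6 along the reference strand, and no member peak held a further match. In windows centred 500 bp to the lower-coordinate side of the member summits the share was 15.4%, and on the other side it was 0 of 26. A CHR-type match (TTTGAA or TTCGAA) lay within 100 bp at 18 of the 26 (69.2%), against 44.7% of all IDR summits and 56.2% of all promoter windows. In windows 500 bp to each side the shares were 46.2% and 50% for the member summits. For all IDR summits they were 53.7% and 53.0%, above the share at those summits themselves. The difference between members and all IDR summits depended on the width. Within 50 bp the count was 6 of 26 (23.1%), against 24.4% of all IDR summits, and within 150 bp 19 of 26 (73.1%), against 59.7%. No E2F-type match overlapped a CHR-type one in the sequences above. The member windows were less rich in G and C (median 39.0%) than those of all IDR peaks (42.3%), and the part of base composition in these shares was not tested. A match is a run of letters and not a shown binding site.

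The polymerase genes held the strongest peak of the whole set. The rpb-11 peak (chromosome II, 14059814 to 14060091) ranked 242 of 4534, and the summit was placed -125 bp from the gene's start. The authors' signal value there was 918, where the median IDR peak had 125. Its rank was 266 in replicate 2 and 212 in replicate 3. RPB-11 and RPB-3 form the pair on which the enzyme is assembled, and the rpb-3 peak (chromosome I, 8728507 to 8728751) came next in this complex at rank 461 and a signal value of 570, with replicate ranks of 442 and 518 and a summit at -124 bp. That summit also fell in the ncRNA gene C36B1.16 and lay at -153 bp from pas-4, a proteasome subunit gene on the opposite strand. The gene of the largest, catalytic subunit, ama-1, had its peak (chromosome IV, 4247423 to 4247635) at rank 797 and a signal value of 370, with replicate ranks of 783 and 762. The ama-1 summit lay in intergenic sequence at -547 bp, farther upstream than at any other bound polymerase gene, and in the window of no other gene.

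All 5 polymerase subunits that are shared with polymerases I and III in yeast and human had bound genes. The rpb-12 peak ranked 601 (526 and 752 in replicates 2 and 3) and the rpb-8 peak 618 (667 and 576), so these neighbours in the order changed places between replicates. Weaker peaks stood at rpb-10 (rank 1362), rpb-5 (rank 2249) and rpb-6 (rank 2871, chromosome II, 10578896 to 10579211, summit at -326 bp), the last being the weakest of the complex. Of the 7 subunits used by polymerase II alone, 5 had bound genes. The stalk pair differed in strength, with rpb-7 at rank 957 (997 and 901) and rpb-4 at rank 2810 (2670 and 3280). The rpb-7 summit lay 11 bp inside the gene, in a coding exon (peak at chromosome I, 3032813 to 3033026), and only 8 bp upstream of Y54E10BR.2 on the opposite strand. By comparison, 4 of 10 genes of polymerases I and III (symbols beginning with rpoa-, rpc- or rpac-) were bound, none stronger than rank 1262.

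The polymerase genes without an IDR summit were rpb-2, for the other large catalytic subunit, and rpb-9, for a small subunit tied to transcript fidelity in yeast. The joint list, which keeps weak regions and background, held a region at rank 16237 of 21875 near rpb-2 (-log10 q of 0.142) and at rank 7782 near rpb-9 (-log10 q of 1.25), both far from the 3.99 shared by all IDR peaks. The rpb-2 window held a region at rank 12122 in replicate 2 and none in replicate 3, and the rpb-9 one held regions ranked 10385 and 10146 in the replicates. Both genes lay behind other genes on the same strand. The gap before rpb-9 was 51 bp and that before rpb-2 was 113 bp. The first genes of those runs, Y97E10AR.6 and mrps-18C, were bound at ranks 2253 and 2396.

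Both genes of some TAF pairs were bound, and 1 gene of others. TAF4 and TAF12 form a histone-fold pair in yeast and human, and taf-4 (rank 299, signal value 799, replicate ranks 301 and 307) and taf-12 (rank 506, signal value 528, replicate ranks 498 and 554) had the strongest peaks of this complex. The taf-4 summit (peak at chromosome I, 382383 to 382652) lay at -300 bp, and the taf-12 one (chromosome III, 11870049 to 11870296) at -900 bp. The 5' end of no other protein-coding gene was nearer to the taf-12 summit. TAF10 pairs with TAF3 or TAF8, and all of taf-3 (rank 1489), taf-8 (rank 1875) and taf-10 (rank 2068) were bound, at -323, -155 and -199 bp. The taf-3 window held a further, weaker IDR summit, the only bound member with 2. The replicates placed taf-8 at 2292 and 1525, and taf-10 at 2460 and 1708, higher in replicate 3 both times. These were among the larger shifts of the set. In the TAF6 and TAF9 pair taf-6.2 was bound (rank 537) and taf-9 was not, and in the TAF11 and TAF13 pair taf-11.3 was bound (rank 920) and taf-13 was not. The weakest bound TAF gene was taf-5, for a WD40-repeat protein, at rank 3857 (chromosome I, 7848808 to 7849123), with its summit at +102 bp in an untranslated exon and at -46 bp from F30F8.5 on the opposite strand. The region overlapping this peak ranked 3538 in replicate 2 and 5301 in replicate 3, where a stronger region in the taf-5 window ranked 4848. No other bound member lay outside the strongest 4534 regions of a replicate.

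In each family of numbered TAF copies 1 gene was bound. The pairs and trio were taf-6.1 and taf-6.2, taf-7.1 and taf-7.2, and taf-11.1, taf-11.2 and taf-11.3. The taf-6.2 peak (chromosome IV, 3694732 to 3694973) ranked 537, with 535 and 544 in replicates 2 and 3. By contrast, taf-6.1 had only a joint region at rank 15943 (-log10 q of 0.151), with replicate ranks of 23322 and 12388. At taf-7.2 the peak ranked 2883 (2939 and 3147), and no list held a region in the window of taf-7.1, whose nearest IDR summit was 45397 bp away. At taf-11.3 the peak ranked 920 (855 and 1030). At taf-11.1 a region at rank 4709 of the joint list, at -226 bp, stood just outside the IDR list with a signal value of 44.0 against 46.3 for the last IDR peak. The nearest member inside was taf-5. The taf-11.1 region ranked 4371 in replicate 2 and 4802 in replicate 3. Its -log10 q was 3.99, the value shared by all IDR peaks. The window of taf-11.2 was empty in every list. Each of the bound copies shared its summit with a divergent neighbour whose 5' end was nearer, namely Y37E11AL.3 at -85 bp for taf-6.2, elpc-2 at -109 bp for taf-7.2 and urm-1 at -98 bp for taf-11.3.

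The gene of TBP itself (chromosome III, 7384033 to 7386124) had no IDR summit. In the window of tbp-1 the joint list and replicate 2 held no region, and replicate 3 held one at rank 21369 of 27203. The nearest IDR summit was 2034 bp upstream, at rank 1781, and lay at -116 bp from T20B12.3, the gene that precedes tbp-1 on the same strand by 127 bp. A similar place was held by taf-9, 105 bp behind mlc-5 (rank 2188, summit at -763 bp), and by taf-13, 104 bp behind ccm-3 (rank 2620, summit at -503 bp). The joint regions near taf-9, taf-13 and taf-1, the last for the largest TAF, ranked 8801, 16457 and 16612. Their -log10 q values were 0.89, 0.134 and 0.129. The replicates differed at these weak regions, with ranks of 14217 and 6001 at taf-9, of 20590 and 20120 at taf-13, and of 9361 at taf-1 in replicate 3 alone. No list held a region near taf-2.

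Of the Mediator genes with an mdt- symbol 7 of 20 were bound, and the peaks of these 7 all ranked among the strongest 2267 of the list. The difference in share from the other complexes was not tested, and Mediator genes under other names, given after these, were bound at 6 of 7. The 7 ranks ran from 617 to 1460. At mdt-22 (chromosome II, 10301025 to 10301271, rank 617, signal value 456, replicate ranks 612 and 643) the summit lay at -64 bp, inside an intron of clpp-1, and in the window of no other gene's 5' end. The mdt-6 peak (rank 700, replicate ranks 712 and 728, chromosome V, 7060431 to 7060660) and the mdt-19 peak (rank 704, replicate ranks 777 and 645, chromosome III, 2597148 to 2597392) lay far upstream, at -927 and -780 bp. Both were closer to other genes, the first at -1 bp from Y57E12AL.1 and -81 bp from Y57E12AL.6 and the second at -239 bp from apb-1. The remaining 4 were mdt-9 (rank 1100), mdt-1.2 (rank 1135), mdt-18 (rank 1303) and mdt-26 (rank 1460, chromosome II, 5661016 to 5661171, the weakest), with summits from -97 to -169 bp.

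By the modules known from yeast and human Mediator, 3 of 9 head genes (mdt-6, mdt-18, mdt-22) and 4 of 8 genes of the middle and its attached subunits (mdt-1.2, mdt-9, mdt-19, mdt-26) were bound. None of the 3 tail genes with an mdt- symbol was. Among these mdt-15, a coactivator of lipid metabolism genes in worms, had a region at rank 8587 at +12 bp (-log10 q of 0.962), with ranks of 9797 and 7468 in the replicates. The others were mdt-27, with a joint region at rank 14063, and mdt-29, with none. In the head, weak regions stood at mdt-17 (rank 14308), mdt-28 (rank 14890), mdt-30 (rank 15031) and mdt-8 (rank 17830), and none at mdt-11 and mdt-20. In the middle, mdt-10 had a region at rank 17563, and mdt-4, mdt-21 and mdt-31 had none. The -log10 q of these 5 weak regions and that of mdt-27 ran from 0.0964 to 0.232. In the replicates they ranked between 13248 and 26330 where a region was present, and the mdt-28 window held none in either replicate. Without a joint region, mdt-11 had a replicate 3 region at rank 12065, mdt-31 one at rank 20404, mdt-29 a replicate 2 region at rank 18936, and mdt-21 regions at 19654 and 18156. Nothing was listed near mdt-4 or mdt-20, the last of which lay 9905 bp from its nearest IDR summit.

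The naming rule leaves out 7 Mediator subunits known by other names, of which 6 were bound, lin-25 and cdk-8 below rank 2267. Of the kinase module cic-1 (cyclin C, rank 921), dpy-22 (rank 2263) and cdk-8 (rank 2995) were bound and let-19 was not. The tail genes sur-2 (rank 995) and lin-25 (rank 2728) and the scaffold gene rgr-1 (rank 1899) were bound too. Their median percentile in the IDR list was 54.1, below the 75.8 of the bound mdt- genes. Other factors of the same machinery gave 9 of 18 general transcription factor genes, among them btf-1 (rank 290), cdk-7 (rank 406) and ttb-1 for TFIIB (rank 2464). Elongation and termination factors gave 15 of 19, led by pafo-1 (rank 65) and cdc-73 (rank 252) of the PAF1 complex, and Integrator gave 8 of 11, led by ints-4 (rank 40). The cdk-8 peak was the same as that of tlf-1, the gene for a TBP-like factor. In the elongation and termination list cit-1.1 and cit-1.2 shared a peak (rank 2212), which counts for both. Of all protein-coding genes 19.6% were bound.

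**Figure D2:**
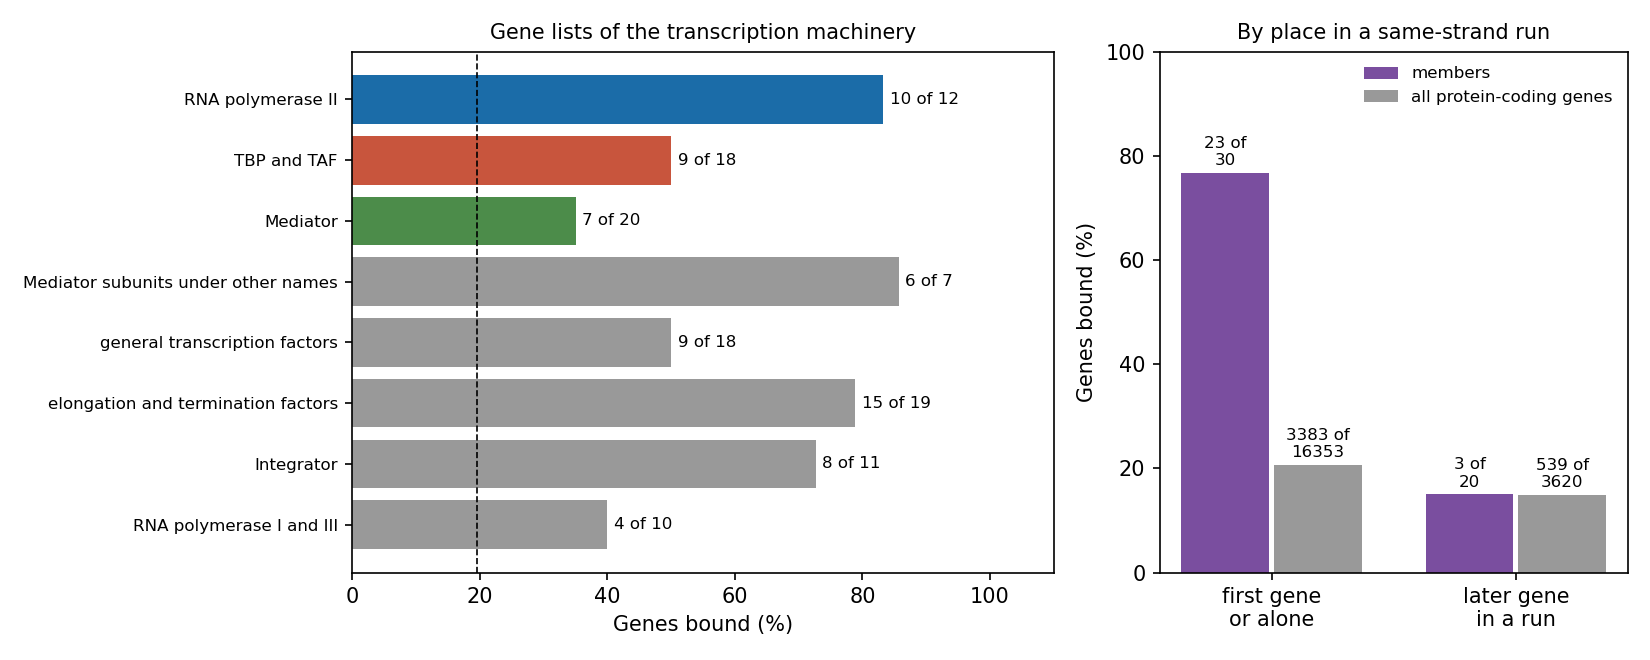
Left, share of bound genes in each list with counts, in colour for the 3 complexes and in grey for related lists; the dashed line is the 19.6% of all protein-coding genes. Right, share bound among genes that are first or alone in a same-strand run (23 of 30 members) and among later genes of a run (3 of 20 members), with all protein-coding genes in grey.

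Of the unbound members, 17 of 24 stood behind another gene on their strand, against 3081 of 16051 unbound protein-coding genes. With bound and unbound members pooled, 20 of 50 were later genes, against 3620 of 19973. Of the bound members alone, 3 of 26 were, against 539 of all 3922 bound genes. Many worm genes are transcribed together in operons, where later genes follow at short gaps and may lack a promoter of their own. The annotation used here does not mark operons, so genes were grouped into runs of same-strand neighbours with gaps of at most 500 bp and no gene of the other strand between them, a grouping chosen after the values were seen. Of the 30 members that were first in a run or alone, 23 were bound (76.7%), against 20.7% of all such genes. Of the 20 later members, 3 were bound (15%), against 14.9% of all later genes. The later ones that were bound were mdt-6, rpb-8 and rpb-5. The mdt-6 peak, at -927 bp, is also the peak of the first gene of its run, Y57E12AL.6, at -81 bp. That gene precedes mdt-6 by 38 bp. The first genes of the rpb-8 and rpb-5 runs were unbound. Among the 17 unbound later members, 10 had a bound first gene (58.8%), against 37.0% for all unbound later genes. These were rpb-2, rpb-9, tbp-1, taf-9, taf-13, mdt-8, mdt-10, mdt-11, mdt-17 and mdt-31. The strongest of the first genes was wip-1, at rank 245, which precedes mdt-11 by 103 bp, followed by Y62F5A.12 (rank 824), which precedes mdt-8 by 109 bp. The first gene was unbound for taf-2, taf-6.1, mdt-4, mdt-15, mdt-27, mdt-28 and mdt-30. First or alone and unbound were taf-1, taf-7.1, taf-11.1, taf-11.2, mdt-20, mdt-21 and mdt-29. With gaps of at most 200 bp the shares were 73.5% of 34 first and 6.25% of 16 later members, and with 1000 bp they were 80.8% of 26 and 20.8% of 24. At 200 bp the only bound later member was mdt-6. Unbound later members with a bound first gene were then 11 of 15 and 9 of 19. With the first gene's window counted for the whole run, 36 of 50 members were bound or had a bound first gene, against 25.3% of all genes. These were all 12 polymerase genes, 12 of the TFIID genes and 12 of the Mediator genes. For 10 of the 36 the peak lies at another gene and no IDR summit lies in the member's own window. Whether such a peak acts on the later genes was not tested.

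Where bound, these genes tended to hold strong peaks. The median percentile of a member's strongest peak in the IDR list was 77.3, against 60.3 over all 3922 bound genes. By complex it was 80.7 for the polymerase, 67.2 for the TFIID genes and 75.8 for Mediator. Among the strongest 1133 peaks lay 14 of the 26 (53.8%, against 33.6% of all bound genes), and below rank 2267 lay 4 (15.4%, against 39.7%). Those 4 were rpb-4, rpb-6, taf-7.2 and taf-5. Summits lay mostly just upstream of an annotated 5' end. Measured from the nearest 5' end of the gene, 24 of 26 lay upstream, with a median of -154 bp (all bound genes -215 bp), and 16 lay within 200 bp (61.5%, against 45.5%). The mdt-18 summit, at -134 bp from an internal 5' end (chromosome I, 6493847), lay inside the gene (6492720 to 6495253, minus strand), in an exon outside the coding sequence. Of the 26 summits, 20 were intergenic, 5 lay within a protein-coding gene and 1 lay in an ncRNA gene only.

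**Figure D3:**
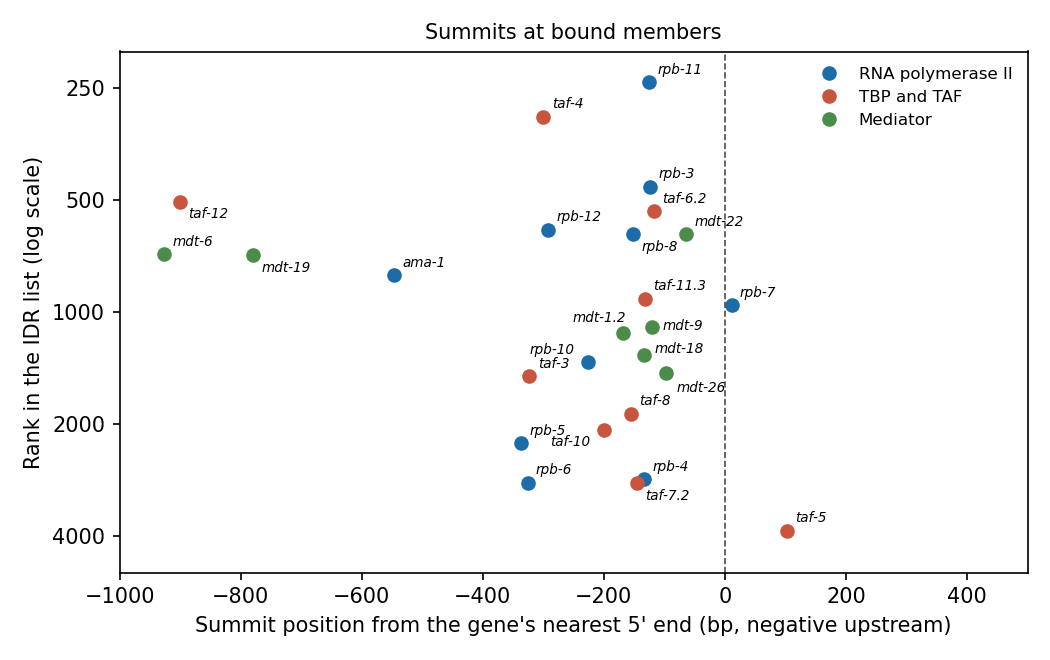
Position of the summit from the gene's nearest 5' end (bp, negative upstream) against rank in the IDR list (log scale, strongest at the top) for the 26 bound members, coloured by complex. Most points lie between -337 and -64 bp, ama-1, mdt-19, taf-12 and mdt-6 lie farther upstream, and rpb-7 and taf-5 lie downstream.

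Many of these peaks could belong to a neighbour as well. At 18 of the 26 genes (69.2%, against 51.3% of all bound genes) the same summit lay in the window of another protein-coding gene, and at 9 another gene's 5' end was nearer. When only the nearest 5' end could claim a peak, 17 members were bound (34.0%, all genes 14.7%), 8 for the polymerase, 5 for the TFIID genes and 4 for Mediator. Those lost were rpb-7, rpb-10, taf-5, taf-6.2, taf-7.2, taf-11.3, mdt-6, mdt-9 and mdt-19. Within 300 bp of a 5' end 19 were bound (38%, against 12.9%), and with the strongest 2267 IDR peaks 22 were (44.0%, against 11.8%). With only the most upstream 5' end of each gene the count was 25 (all genes 18.5%), mdt-18 being lost, with any overlap of the peak and the window it was 27 (20.5%), and with joint regions of -log10 q over 2 it was 27 (24.0%), the addition being taf-11.1.

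The replicates placed the 26 bound members in nearly the same order, though these were picked from a list made from both replicates. The strongest 4534 regions of replicate 3 alone gave 25 bound members (all genes 19.4%) and those of replicate 2 alone gave 27 (all genes 19.6%). The differences were taf-5, whose window held nothing above rank 4848 in replicate 3, and taf-11.1, at rank 4371 in replicate 2. In replicate 3 taf-11.1 ranked 4802, close to taf-5, so both fell just below the strongest 4534 regions. At 25 of the 26 bound members the strongest such regions of the replicates overlapped. The ranks of the overlapping regions differed by a median of 0.213 on the log2 scale, against 0.221 over the 4525 IDR peaks that overlap a region of each replicate. The largest log2 ratios of the rank in replicate 2 to that in replicate 3 were 0.588 for taf-8 and -0.583 for taf-5, and none of the 26 exceeded the 95th percentile of size among IDR peaks of similar rank. Over the strongest 1133 peaks that percentile was 0.538, so members such as rpb-12, mdt-22, rpb-8, mdt-6 and mdt-19, at ranks 601 to 704, cannot be ordered among themselves. The samples are labelled biological replicates, and their number limits the precision of every rank given here.

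**Figure D4:**
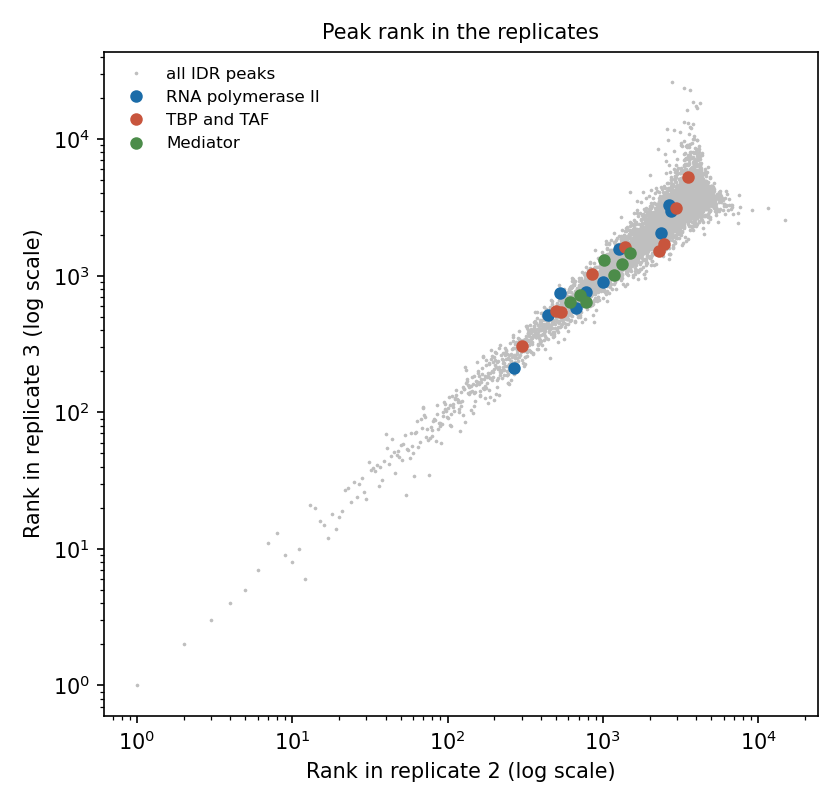
Rank in replicate 2 against rank in replicate 3 (log scales) for all IDR peaks in grey and the 26 peaks of bound members in colour by complex. The members follow the diagonal from rpb-11 (266 and 212) to taf-5 (3538 and 5301).

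The members were spread over all chromosomes. On chromosomes I and III, where 28% and 30.4% of all genes were bound, 7 of 10 and 5 of 13 members were. On II and IV 6 of 11 and 4 of 6 members were bound, with 19.7% and 20.1% of all genes. On V and X, where 12.9% and 12.1% of all genes were bound, 2 of 6 and 2 of 4 members were: rpb-9, mdt-17, mdt-27 and mdt-28 on V and taf-7.1 and taf-11.1 on X were the ones without an IDR summit.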

How the data were processed

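Peak lists on the ce11 build were used: the IDR list (4534 peaks), the joint list (21875 regions) and the lists of replicates 2 and 3 (25572 and 27203 regions). Per the deposited description texts, the authors derived a replicate's list from its own alignment and a control, and the joint list from the pair of alignments and a control. The IDR list was derived by them from the joint one. For aligner, caller and IDR threshold: not given in the sources used here. Signal and −log10 q of a peak are values the authors deposited, and signal served only to rank peaks within a list. The IDR peaks were the 4534 joint regions of highest signal. Depth is unknown, so no value carries a counting interval. The ce10 lists and the control were not used here.

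Summits were computed as start plus the deposited offset, and all positions count from 1. Genes and 29314 distinct 5' ends came from Ensembl release 115 (WBcel235), and sequence from the RefSeq WBcel235 assembly, whose chromosome lengths held every peak. The gene assigned to a peak, its percentile and pattern matches were computed with Python 3.11.15 and pandas 2.3.3, and the assignment was tested on planted peaks. The polymerase, TFIID and Mediator members and the related lists were chosen with earlier results of these data known. Subunit groups, TAF pairs, same-strand runs (at most 50 bp of gene overlap allowed) and shared strings were added after the values were seen. All members are named. By rule, fuller values go to ama-1, tbp-1, the 3 strongest and the weakest bound gene of each complex, summits downstream of a 5' end and genes without an IDR summit. For the last, ranks and −log10 q are given in place of coordinates, and printed sequences carry their own. Alternatives were other windows, 5' ends, thresholds and single replicates. Both samples form 1 group, so no test was made.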

Additional observations from a re-analysis of the deposited data

How the results depend on the processing

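Of the counts of bound members under 9 other settings, those that moved by more than 1.5 times were the count with nearest genes only, 17 in all against 26, 5 against 9 for the TFIID genes and 4 against 7 for Mediator, and the count with the first gene of a run, 12 against 7 for Mediator. The last setting was chosen after seeing the data. With 1 replicate left out, which leaves the other replicate's own list, the counts were 25 to 27 in all, 10 for the polymerase, 8 to 10 for the TFIID genes and 7 for Mediator, with taf-5 lost without replicate 2 and taf-11.1 gained without replicate 3. The median percentile of 77.3 was 75.8 within 300 bp, 75.0 with nearest genes only, 78.9 with the most upstream 5' end and with peak overlap, and 77.5 to 77.6 with 1 replicate left out. The median summit position of -154 bp was -134 bp within 300 bp, -169 bp with nearest genes only, -162 bp with the strongest 2267 peaks and -164 to -156 bp with 1 replicate left out. These medians were set against the spread between the replicates, 0.109 percentile points and 5.66 bp, and the cause of each shift was not tested. CHR-type matches, at 18 peaks within 100 bp, were at 6 within 50 bp and 19 within 150 bp. E2F-type matches were at 5 peaks within 50 bp and 6 within 150 bp. No paired analysis was possible because there is 1 group. Without a read depth, a gene with no region may still be bound below the detection limit of these lists.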

Other observations

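The windows of taf-8, taf-11.3 and taf-7.2 hold no E2F-type or CHR-type match within 60 bp of the summit, but share a string of 12 bases. It was found by listing strings of at least 10 bases that 3 or more of the member windows examined have in common, leaving out simple repeats and strings that lack a base, and no other string met that rule. The 3 windows, from RefSeq WBcel235 on the strand of the gene, have the shared string in capitals, and it is reversed and complemented at taf-7.2.
taf-8 (chrII:9669103-9669223, plus strand): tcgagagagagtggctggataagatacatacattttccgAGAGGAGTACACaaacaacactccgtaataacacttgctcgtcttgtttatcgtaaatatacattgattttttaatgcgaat
taf-11.3 (chrIII:10505322-10505442, minus strand): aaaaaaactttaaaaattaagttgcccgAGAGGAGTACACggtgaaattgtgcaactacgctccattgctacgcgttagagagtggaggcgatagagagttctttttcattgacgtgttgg
taf-7.2 (chrIII:12673508-12673628, minus strand): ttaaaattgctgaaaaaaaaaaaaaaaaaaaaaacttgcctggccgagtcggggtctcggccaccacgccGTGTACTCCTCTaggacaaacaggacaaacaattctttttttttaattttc

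Over the whole IDR list the string lay within 100 bp of 56 of 4534 summits (1.24%), with ranks from 34 to 4445 and a median of 1168. Windows of the same length 500 bp to either side of all IDR summits held it in 4 of 9068 (0.0441%), and promoter windows of all protein-coding genes in 42 of 19973 (0.21%). Of its 58 occurrences at IDR summits, 43 had their centre within 30 bp of the summit. Which protein, if any, reads this string was not tested, and a string picked from these windows gets no test.

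A shorter string, TTGCGC, was also read off the member windows after the values were seen. It lay within 100 bp of the summit on either strand at 6 of the 26 member peaks (23.1%), those of rpb-11, rpb-12, mdt-22, rpb-8, mdt-6 and mdt-19. Over all IDR summits the share was 14.6%, with 19% among the strongest 1133. It was 4.3% in windows 500 bp to either side and 4.82% in promoter windows of all protein-coding genes. All 6 of these members rank among the strongest 1133 IDR peaks.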
